A study of Mus musculus with 12 samples.

Results

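The genes described here mark 3 stages of the oligodendrocyte lineage: precursors (13 genes), newly formed oligodendrocytes (14 genes) and maturing oligodendrocytes (9 genes). The structural proteins of myelin are left out. The genes were chosen by symbol, and 34 of the 36 were found among the 35275 genes of the count table, 12 of precursors, 13 of newly formed and 9 of maturing cells. Lhfpl3 and Samd4b were not analysed here. All 34 were among the 18344 genes that passed a filter on low counts, and the lowest count of any of them in a library was 25, for Sapcd2. The RNA, selected for poly(A) tails, came from the optic nerves of mice that model neurofibromatosis type 1 (NF1), a disorder of the NF1 gene, whose product restrains RAS signalling. The nerves had been exposed to carboplatin (3 libraries), a platinum compound that links DNA strands to each other, to selumetinib (3 libraries), an inhibitor of the MEK kinases downstream of RAS, or to phosphate-buffered saline (PBS, 6 libraries), labelled as the NF1 control. Every group was of the NF1 model, and no wild-type group was analysed here. The labels name no allele of the model, Cre driver, dose, schedule, age, sex or pooling. The cell type label reads only nerve cells. The labels do not say whether each library is a different animal, so p-values measure the spread between these libraries, which may be technical.

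Oligodendrocytes make the myelin of the optic nerve and arise from precursors that carry the PDGF receptor alpha and the proteoglycan NG2. Precursors divide, and some persist in the adult nerve. A precursor that leaves the cell cycle passes through a short newly formed state, marked by Gpr17, Bcas1 and Enpp6, and then switches on the myelin genes under the transcription factors Sox10 and Myrf. The study asked what carboplatin does to the oligodendrocytes of the optic nerve, and the genes below divide that question by stage.

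The bases just upstream of the start site are shown for 5 members on which the results turn. Pcdh15 and Sirt2 passed the test between the drugs, and Enpp6, Nkx2-2 and Aspa had carboplatin values below all of PBS 2 to 6. Each sequence is the 250 bases before the RefSeq start site in GRCm38.p6, 5′ to 3′ on the strand of the gene. Capitals mark E-boxes (CANNTG), the letters that bHLH factors such as OLIG2 bind, and the SOX letters ACAAAG and ACAATG, on either strand. The windows lie at chr10:73821617-73821866 (plus strand), chr7:28766502-28766751 (plus strand), chr8:46986637-46986886 (plus strand), chr2:147186403-147186652 (minus strand) and chr11:73324638-73324887 (minus strand).
Pcdh15: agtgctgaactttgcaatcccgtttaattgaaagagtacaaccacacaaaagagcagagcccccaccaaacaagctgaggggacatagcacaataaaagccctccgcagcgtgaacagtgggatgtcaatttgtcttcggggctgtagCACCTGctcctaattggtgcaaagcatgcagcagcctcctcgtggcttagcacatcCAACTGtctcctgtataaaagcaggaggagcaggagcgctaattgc
Sirt2: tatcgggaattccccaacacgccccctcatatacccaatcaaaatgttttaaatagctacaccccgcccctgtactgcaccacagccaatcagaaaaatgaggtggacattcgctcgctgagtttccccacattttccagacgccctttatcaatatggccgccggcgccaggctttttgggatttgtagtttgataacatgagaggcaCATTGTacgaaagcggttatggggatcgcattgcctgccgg
Enpp6: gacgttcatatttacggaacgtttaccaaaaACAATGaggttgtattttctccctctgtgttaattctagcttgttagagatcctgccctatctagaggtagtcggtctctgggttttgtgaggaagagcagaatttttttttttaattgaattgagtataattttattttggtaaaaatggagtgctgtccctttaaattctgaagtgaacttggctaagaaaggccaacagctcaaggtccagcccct
Nkx2-2: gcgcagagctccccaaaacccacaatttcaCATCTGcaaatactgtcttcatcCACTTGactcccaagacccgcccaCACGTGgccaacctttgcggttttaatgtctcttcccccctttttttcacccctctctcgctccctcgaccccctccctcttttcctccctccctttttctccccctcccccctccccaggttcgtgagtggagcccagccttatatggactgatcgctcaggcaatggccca
Aspa: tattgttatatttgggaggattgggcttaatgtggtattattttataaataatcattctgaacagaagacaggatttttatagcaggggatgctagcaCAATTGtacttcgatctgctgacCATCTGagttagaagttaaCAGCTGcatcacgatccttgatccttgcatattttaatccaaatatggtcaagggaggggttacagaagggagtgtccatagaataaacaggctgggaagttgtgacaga
The windows of Nkx2-2 and Aspa hold 3 E-boxes each and that of Pcdh15 holds 2, all with 0 SOX motifs, while those of Sirt2 and Enpp6 hold 1 SOX motif each and 0 E-boxes. RefSeq windows were matched for 26 of the 34 members, 42 windows in all. CANNTG was found in 71.4% of the 42 windows and in 66.2% of all 32851 windows of the table. ACAAAG was in 23.8% of the 42 and 16.5% of all, ACAATG in 16.7% and 10.7%, and CAGCTG, a form of CANNTG, in 9.52% and 13.0%. These shares describe letters, and binding was not measured.

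In the PBS nerves the members spanned a wide range of levels. In median CPM per kilobase of exon (CPM is counts per 1000000, with library sizes scaled by TMM factors), the highest level was that of Bcas1 (399), a protein of cells that begin to myelinate. It was followed by Gsn (228), the actin-severing gelsolin, the lineage factor Olig1 (212) and the tetraspanin Tspan2 (142). The lowest were Pcdh15 (0.475), a protocadherin, and Sapcd2 (0.572), which helps to orient the spindle. Neighbours in this order overlapped: over the 6 PBS libraries Gsn ran from 165 to 483 CPM per kb and Olig1 from 68.8 to 268. The coefficient of variation of CPM over the PBS libraries was smallest for Pcdh15 (10.3%) and largest for Sapcd2 (47.1%).

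Total counts per library ran from 21793052 to 33375754, and the members together took 0.648% to 0.689% of the counts in carboplatin, 0.351% to 0.745% in selumetinib and 0.308% to 0.787% in PBS. The oligodendrocyte markers Mbp, Mog, Mag, Mobp, Cnp and Sox10 were detected in every library. Mog, a surface protein of myelin, had 399, 415 and 335 CPM in carboplatin 1 to 3 and 204, 153 and 480 CPM in selumetinib 1 to 3, against 169 CPM in PBS 1 and 384 to 626 CPM in PBS 2 to 6. Selumetinib 1, selumetinib 2 and PBS 1 stood apart from the rest, with the lowest levels of all 12 libraries for each of Mbp, Mog, Mag, Mobp, Cnp and Sox10. The 10 skeletal muscle markers took 3.89%, 0.01665% and 0.0243% of PBS 1 to 3, and 0.000355% to 0.000466% of PBS 4 to 6. They took 0.160%, 0.123% and 0.00757% of carboplatin 1 to 3, and 0.000317% to 0.001% of the selumetinib libraries. The 8 photoreceptor markers took 0.0807%, 0.00369% and 0.144% of carboplatin 1 to 3. Their share was at most 0.00039% in selumetinib and 0.0133% in PBS. The 7 retinal pigment epithelium markers took 0.00859%, 0.122% and 0.0199% of carboplatin 1 to 3, and at most 0.00898% in PBS. The 8 neuron markers took 0.176% of selumetinib 1, 0.191% of selumetinib 2 and 0.0234% of selumetinib 3, against 0.00211% to 0.0498% of the PBS libraries. The 8 astrocyte markers took 1.09% to 1.46% in carboplatin, 0.626% to 0.950% in selumetinib and 0.289% to 1.35% in PBS. Results are given with and without selumetinib 1, selumetinib 2 and PBS 1. In bulk RNA, fewer cells of a stage and less RNA per cell cannot be told apart.

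The 3 stages did not stand equally low in the libraries that stood apart. For each gene the log2 CPM in a library was set against its median in PBS, and the median over the genes of a stage was taken. In selumetinib 1 and 2 this was -1.06 and -1.47 for maturing genes, -0.70 and -0.997 for newly formed genes and -0.43 and -0.70 for precursor genes. The 20 mature oligodendrocyte and myelin genes, which are not members, gave -1.22 and -1.66. Both libraries thus had the smallest difference in precursor genes and the largest in mature genes. PBS 1 had another order, with -1.01 for precursor, -0.90 for newly formed, -1.57 for maturing and -1.42 for mature genes. In selumetinib 3 all 4 medians lay between -0.15 and 0.06. In carboplatin 1 to 3 the medians were 0.03, -0.08 and -0.23 for precursor genes, -0.10, 0.03 and -0.10 for newly formed genes and 0.05, -0.02 and -0.07 for maturing genes, and -0.22, -0.12 and -0.38 for mature genes. Across all 18344 genes, the median of a library ran from -0.01 to 0.01. The part of neuron, muscle, photoreceptor and retinal pigment epithelium RNA in these levels was not tested.

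**Figure D1:**
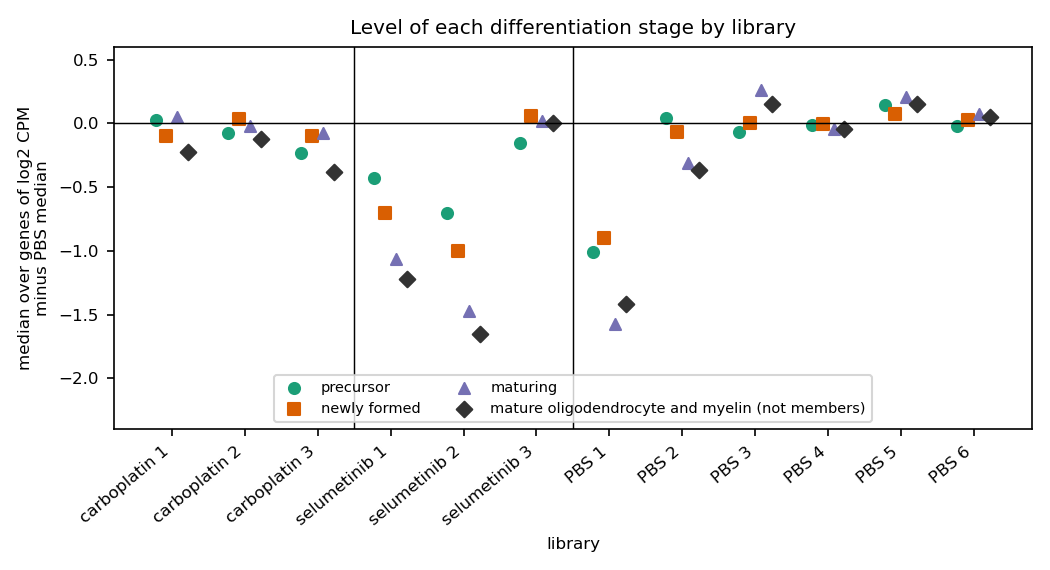
Median, over the genes of a stage, of log2 CPM minus the median of the gene in the 6 PBS libraries, for each library (carboplatin, selumetinib and PBS from left to right). Selumetinib 1, selumetinib 2 and PBS 1 lie below 0 at every stage, with maturing medians of -1.06, -1.47 and -1.57, and the other 9 libraries lie between -0.38 and 0.26.

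**Figure D2:**
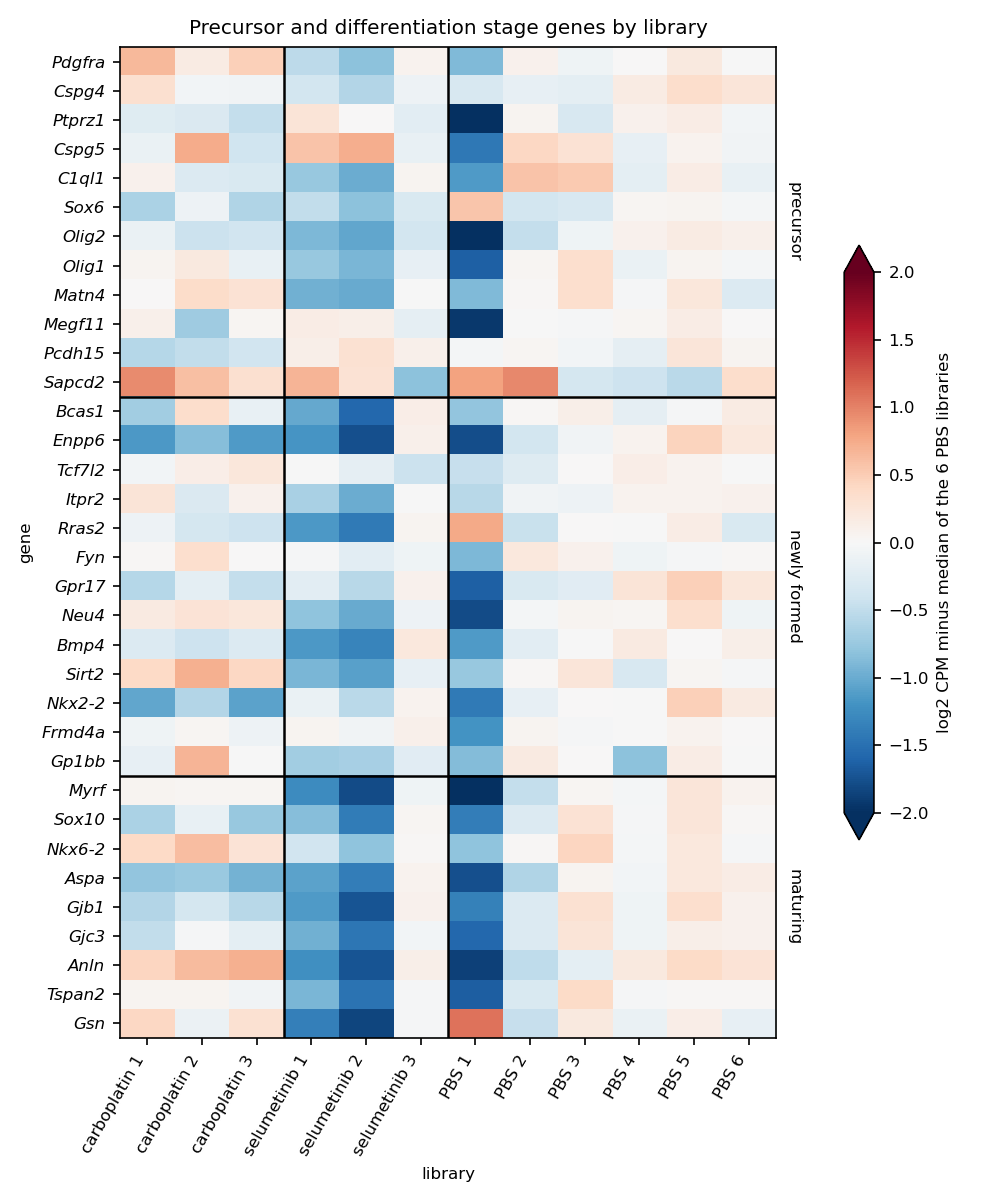
Log2 CPM of each member minus its median in the 6 PBS libraries, with genes in rows by stage and libraries in columns, and colours that end at -2 and 2. Most members are below the PBS median in selumetinib 1, selumetinib 2 and PBS 1. Cspg5, Ptprz1, Megf11, Pcdh15 and Sapcd2 are above it in both of these selumetinib libraries. Gsn, Rras2, Sapcd2 and Sox6 are above it in PBS 1.

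Carboplatin was set against PBS first. None of the 34 members passed at an edgeR adjusted p under 0.05, where 2.09% of all genes passed (288 higher, 1.57%, and 95 lower, 0.518%). The members with an unadjusted p under 0.05 were Sirt2, above PBS, and Pcdh15 and Nkx2-2, below it. Of all genes, 8.12% stood above PBS and 8.43% below at that limit. DESeq2 called 1 member, Pcdh15 as lower, where it called 8.99% of all genes, and limma voom with quality weights called 2 higher and 8 lower, where it called 29.6% of all genes. The median log2 fold change was 0.03 over the members, 19 positive and 15 negative, and -0.11 over all genes. By stage it was 0.03 for precursor, 0.08 for newly formed and 0.02 for maturing genes. The 20 other precursor genes and 20 other newly formed genes, which are not members, gave -0.11 and -0.32. With PBS 1 left out, 2 members passed as lower, Pcdh15 (-0.52, edgeR adjusted p 0.0309) and Nkx2-2 (-1.02, edgeR adjusted p 0.0106). Of all genes 10.7% passed there, 1230 as higher and 711 as lower.

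Among precursor genes, Pcdh15 had the smallest p. It had 7.59, 8.03 and 8.68 CPM in carboplatin 1 to 3, against 9.92, 11.3 and 13.4 CPM as the lowest, median and highest of the 6 PBS libraries. All 3 carboplatin values lay below all 6 PBS values, as they did for 5.23% of all genes. The log2 fold change was -0.50 ± 0.14 (SE), with an edgeR adjusted p of 0.101, which did not pass. PBS 1 was inside the range of the other PBS libraries for this gene, at 11.0 CPM, and leaving out any 1 library gave fold changes between -0.54 and -0.43. Known best from the hair cells of the ear, Pcdh15 is also a marker of precursors in mouse brain. Pdgfra, the receptor for the growth factor that keeps precursors dividing, had 252, 181 and 224 CPM in carboplatin, against 86.9, 161 and 184 CPM as the lowest, median and highest in PBS. Carboplatin 2 lay inside the PBS range and carboplatin 1 and 3 above it, and the log2 fold change of 0.52 ± 0.24 did not pass (edgeR adjusted p 0.314).

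The other precursor landmarks overlapped between the groups. Cspg4, which encodes NG2, had 39.3, 30.4 and 30.1 CPM in carboplatin, against 25.1, 31.7 and 40.2 CPM as the lowest, median and highest in PBS (log2 0.04 ± 0.18). Olig2, the bHLH factor that specifies the lineage, had 96.6, 78.8 and 82.0 CPM in carboplatin, against 26.4, 106 and 119 CPM in PBS, where PBS 1 was the lowest (log2 -0.09 ± 0.37). Sox6, a factor that holds precursors undifferentiated, had 29.1, 41.8 and 29.5 CPM in carboplatin, against 34.8, 45.0 and 66.5 CPM in PBS, where PBS 1 was the highest (log2 -0.45 ± 0.22). Carboplatin 1 and 3 were below every PBS library for Sox6, and carboplatin 2 was inside the PBS range. The other 7 precursor genes (Ptprz1, Cspg5, C1ql1, Olig1, Matn4, Megf11 and Sapcd2) had log2 fold changes between -0.22 and 0.39, and none passed.

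Newly formed genes lay on both sides of PBS. Sirt2, an NAD-dependent deacetylase abundant in oligodendrocytes, had 517, 644 and 524 CPM in carboplatin, against 234, 394 and 464 CPM as the lowest, median and highest in PBS. The groups did not overlap, as for 6.97% of all genes in this direction, and the log2 fold change of 0.61 ± 0.24 did not pass (edgeR adjusted p 0.243). Nkx2-2, a homeodomain factor that precursors need to differentiate, had 13.3, 18.1 and 12.9 CPM in carboplatin, against 10.2, 27.3 and 38.0 CPM in PBS. Its carboplatin values lay above PBS 1 and below all of PBS 2 to 6, with a log2 fold change of -0.83 ± 0.33 (edgeR adjusted p 0.245). Enpp6, a choline phosphodiesterase used as a marker of oligodendrocytes that have just formed, had 41.2, 50.9 and 41.9 CPM in carboplatin, against 26.7, 91.9 and 125 CPM in PBS. It had the same arrangement, with PBS 1 lowest of all and PBS 2 to 6 at 71.1 CPM or more, and a log2 fold change of -0.94 ± 0.47 (edgeR adjusted p 0.355).

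For 4 further newly formed genes the groups overlapped. Gpr17, a receptor of cells committed to differentiate, had 79.2, 102 and 84.5 CPM in carboplatin, against 38.0, 119 and 163 CPM as the lowest, median and highest in PBS. Bcas1 had 934, 1917 and 1361 CPM in carboplatin, against 876, 1506 and 1691 CPM in PBS, so that its carboplatin libraries differed from each other by more than the 6 PBS libraries did. Itpr2, a calcium release channel, had 77.4, 53.2 and 69.3 CPM in carboplatin, against 44.2, 65.1 and 69.0 CPM in PBS. Rras2, a RAS-family GTPase, had 19.1, 15.9 and 15.4 CPM in carboplatin, against 14.9, 20.4 and 34.4 CPM in PBS. Their log2 fold changes were -0.34 ± 0.36, -0.02 ± 0.37, 0.10 ± 0.22 and -0.36 ± 0.34 in this order. The other 6 newly formed genes (Tcf7l2, Fyn, Neu4, Bmp4, Frmd4a and Gp1bb) had log2 fold changes between -0.21 and 0.39, and none passed.

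Maturing genes also lay on both sides. Aspa, the enzyme that frees acetate from N-acetylaspartate in oligodendrocytes, had 65.2, 67.5 and 58.5 CPM in carboplatin, against 33.4, 113 and 130 CPM as the lowest, median and highest in PBS. Gjb1, the gap junction protein connexin 32, had 107, 126 and 109 CPM in carboplatin, against 63.1, 161 and 203 CPM in PBS. For both, the carboplatin values lay above PBS 1 and below PBS 2 to 6, with log2 fold changes of -0.63 ± 0.42 and -0.42 ± 0.41. Anln, the septin-binding protein anillin, known from dividing cells and from myelin, had 684, 782 and 830 CPM in carboplatin, against 139, 511 and 660 CPM in PBS. Its carboplatin values lay above all 6 PBS values, yet the log2 fold change of 0.72 ± 0.46 did not pass (edgeR adjusted p 0.473).

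The transcription factors of maturation overlapped between carboplatin and PBS. Myrf, the membrane-bound factor that switches on myelin genes, had 395, 390 and 391 CPM in carboplatin, against 94.4, 380 and 452 CPM as the lowest, median and highest in PBS (log2 0.25 ± 0.44). The 3 carboplatin values of Myrf were close together (SD 2.71 CPM). Sox10, which acts with Myrf, had 152, 212 and 139 CPM in carboplatin, against 89.9, 235 and 286 CPM in PBS (log2 -0.39 ± 0.38). Nkx6-2, a homeodomain factor of maturing oligodendrocytes, had 145, 168 and 133 CPM in carboplatin, against 62.4, 110 and 147 CPM in PBS (log2 0.43 ± 0.24). Sox10 thus stood on the low side and Nkx6-2 on the high side of the PBS median, neither past the test. Gsn had 960, 662 and 889 CPM in carboplatin, against 522, 720 and 1526 CPM in PBS, where PBS 1 was the highest. Gjc3 (connexin 29) and Tspan2 had log2 fold changes of -0.09 ± 0.38 and 0.15 ± 0.39.

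**Figure D3:**
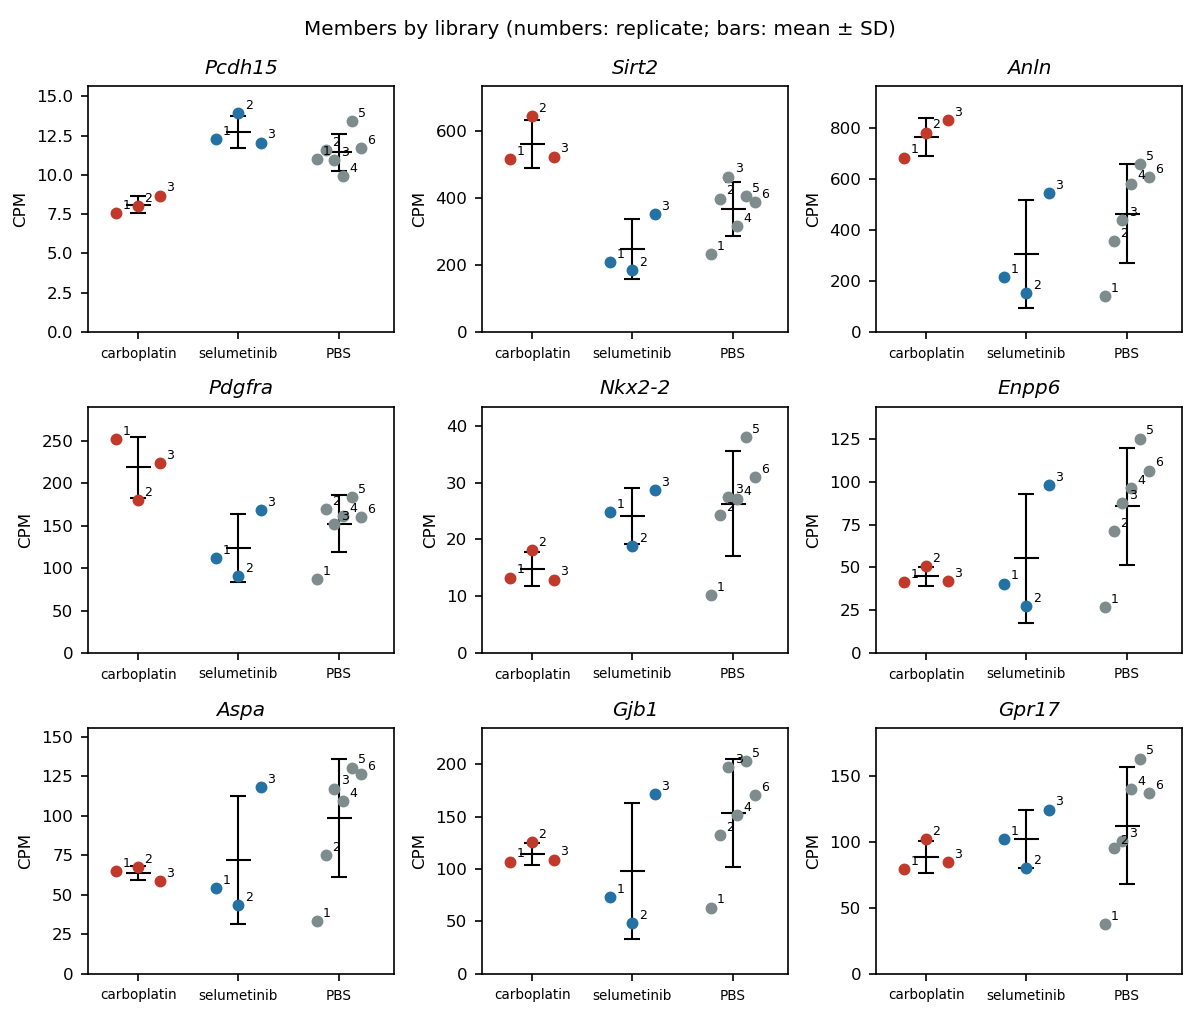
CPM of 9 members in each library, with carboplatin, selumetinib and PBS from left to right, replicate numbers beside the points and bars for the mean and SD. Pcdh15 is lower, and Sirt2 and Anln are higher, in all 3 carboplatin libraries than in all 6 PBS libraries, and PBS 1 is the lowest PBS library for the 8 genes shown other than Pcdh15.

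The number of members set apart depended on PBS 1. Against PBS 2 to 6 alone, the carboplatin values of 6 members lay below every PBS value (Pcdh15, Enpp6, Bmp4, Nkx2-2, Aspa and Gjb1), 17.6% of the 34, where 11.2% of all genes did. Those of 2 members lay above (Sirt2 and Anln), 5.88%, where 14.0% of all genes did. With PBS 1, selumetinib 1 and selumetinib 2 left out of the fit, 8 members passed. Of all genes 15.9% passed there, 1625 as higher and 1448 as lower. Sirt2 rose (0.48 on the log2 scale, edgeR adjusted p 0.0386). The 7 that fell were Enpp6 (-1.15, adjusted p 0.00302), Nkx2-2 (-1.02, adjusted p 0.00538), Aspa (-0.83, adjusted p 0.0101), Gjb1 (-0.61, adjusted p 0.0209), Sox10 (-0.57, adjusted p 0.0440), Pcdh15 (-0.53, adjusted p 0.0310) and Bmp4 (-0.37, adjusted p 0.0371). Bmp4 is a ligand that restrains differentiation. Sox10 was itself among the markers by which these libraries were set apart, so its call is not independent of that choice. PBS 1 was the lowest PBS library for Sox10, Enpp6, Nkx2-2, Aspa, Gjb1 and Bmp4. Leaving it out raised their PBS mean, which favours calls as lower. The median log2 fold change over all members was -0.07 in this fit, against -0.04 over all genes.

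**Figure D4:**
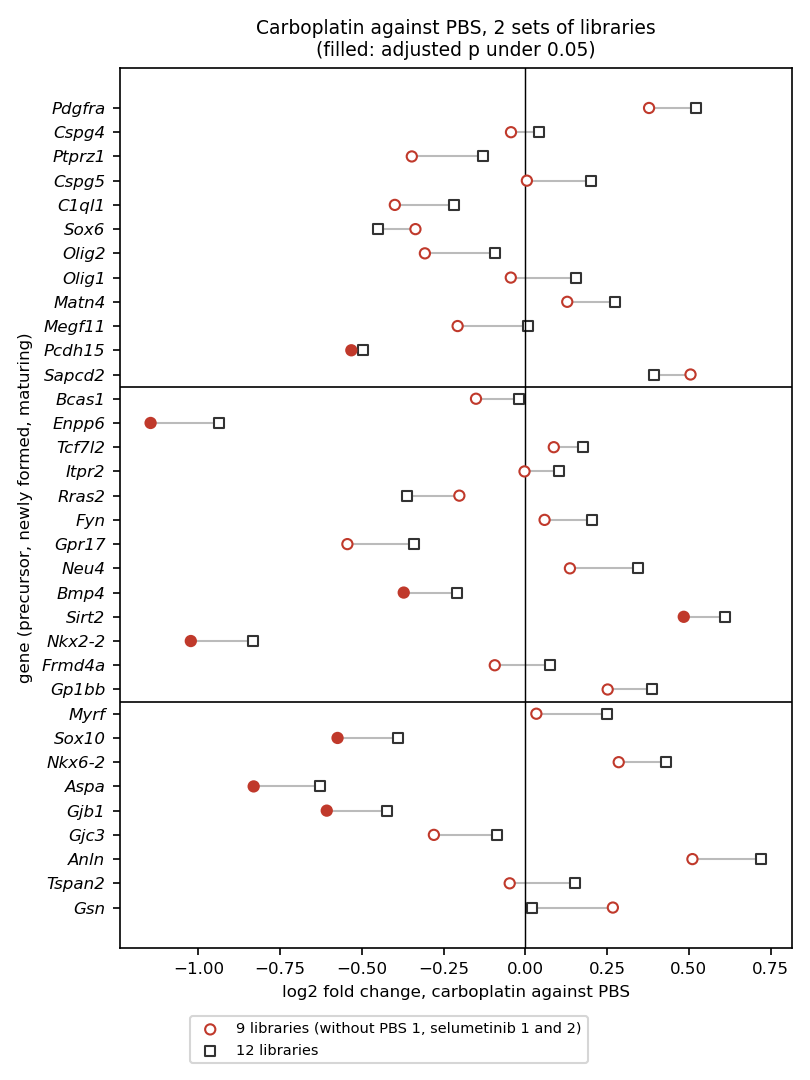
Log2 fold change of each member in carboplatin against PBS, from the fit without PBS 1, selumetinib 1 and selumetinib 2 (circles, 9 libraries) and from the fit of all 12 libraries (squares), filled where the adjusted p is under 0.05. Enpp6, Nkx2-2 and Aspa lie farthest below 0 in the fit of 9 libraries, at -1.15, -1.02 and -0.83, and no square is filled.

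Members were also compared at an equal level of mature oligodendrocyte genes. The mean log2 CPM of the 20 mature and myelin genes in each library was added to the model as a score. At an equal score, 6 of 34 members passed in carboplatin against PBS, where 6.75% of all genes passed (837 higher and 402 lower). Higher in carboplatin were Anln (1.14, edgeR adjusted p 0.00595), Sirt2 (0.75, edgeR adjusted p 0.00394), Pdgfra (0.68, edgeR adjusted p 0.0263), Myrf (0.68, edgeR adjusted p 0.0227) and Nkx6-2 (0.60, edgeR adjusted p 0.0106). Enpp6 was lower (-0.54, edgeR adjusted p 0.0409). The score was measured in the same libraries, and it can itself differ with treatment.

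Selumetinib was set against PBS in the same way. None of the 34 members passed, where 0% of all genes passed (0 of 18344 by edgeR). At an unadjusted p under 0.05, 0 members were higher and 4 were lower (Sox6, Rras2, Sirt2 and Gsn). Of all genes, 2575 were higher (14%) and 1835 lower (10%) at that limit. DESeq2 called 0 members, where it called 13.7% of all genes. Limma voom with quality weights called 1 member higher and 24 lower, where it called 55.3% of all genes (5310 higher and 4838 lower). No member had selumetinib values all above or all below PBS, where 3.23% and 2.70% of all genes did. The log2 fold change was negative for 29 of 34 members, with medians of -0.34 for precursor, -0.42 for newly formed and -0.57 for maturing genes, against -0.09 over all genes. With selumetinib 1, selumetinib 2 and PBS 1 left out, the medians were -0.21, -0.04 and -0.04 in the same order, for a lone selumetinib library that is assumed to vary like the other groups. At an equal mature oligodendrocyte score they were 0.10, 0.03 and 0.15, and no member passed. Other genes of the same stages, which are not members, did not share the negative medians of the 12 libraries. The median was 0.31 for 20 other precursor genes (11 positive and 9 negative) and -0.02 for 20 other newly formed genes.

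The selumetinib libraries differed from each other. Gsn had 278, 200 and 704 CPM in selumetinib 1 to 3, against 522, 720 and 1526 CPM as the lowest, median and highest in PBS (log2 -1.06 ± 0.44, edgeR adjusted p 0.176). Rras2 had 9.20, 7.63 and 21.3 CPM in selumetinib, against 14.9, 20.4 and 34.4 CPM in PBS (log2 -0.76 ± 0.35, edgeR adjusted p 0.207). Sirt2 had 209, 186 and 351 CPM in selumetinib, against 234, 394 and 464 CPM in PBS (log2 -0.57 ± 0.26, edgeR adjusted p 0.204). In all 3 genes selumetinib 1 and 2 lay below every PBS library and selumetinib 3 inside the PBS range. Myrf had 158, 110 and 356 CPM, Enpp6 40.5, 27.2 and 98.2 CPM, Bcas1 744, 509 and 1652 CPM and Anln 215, 153 and 546 CPM in selumetinib 1 to 3. Each was lowest in selumetinib 2, and selumetinib 3 was inside the PBS range for all 4.

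With selumetinib 3 left out, 21.6% of all genes passed, 2409 as higher and 1680 as lower. Of the members, 7 passed as lower: Gsn (-1.74), Rras2 (-1.32), Gjb1 (-1.30), Bcas1 (-1.16), Bmp4 (-1.10), Sirt2 (-0.88) and Itpr2 (-0.72), as log2 fold changes. Of these, 5 are newly formed genes, 2 are maturing genes and 0 are precursor genes. A difference between stages was not tested. The neuron markers were highest in selumetinib 1 and 2, the libraries that remain in this fit, and their part was not tested.

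Several precursor genes did not share the low level of selumetinib 1 and 2. Cspg5, the proteoglycan neuroglycan C, had 178, 199 and 109 CPM in selumetinib 1 to 3, against 44.5, 120 and 160 CPM as the lowest, median and highest in PBS. Ptprz1, a receptor phosphatase of precursors and astrocytes, had 246, 208 and 178 CPM, against 50.3, 206 and 228 CPM in PBS. Megf11 had 27.0, 26.6 and 21.5 CPM, against 6.33, 24.5 and 27.2 CPM in PBS. Selumetinib 1 and 2 lay above the PBS median for these 3 genes, as they did for Pcdh15, with 12.3, 13.9 and 12.1 CPM in selumetinib and 9.92, 11.3 and 13.4 CPM in PBS. They did so for Sapcd2 as well, with 3.15, 2.38 and 1.07 CPM in selumetinib and 1.32, 2.00 and 3.85 CPM in PBS. Pdgfra had 112, 90.8 and 169 CPM, Cspg4 24.4, 20.9 and 29.4 CPM, Olig2 56.8, 51.9 and 82.8 CPM and Sox6 32.1, 25.5 and 36.3 CPM in selumetinib 1 to 3. These 4 were below the PBS median in selumetinib 1 and 2, and each was lowest in selumetinib 2. Neurons are known to express Cspg5, and the part of neuronal RNA in its values was not tested.

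Other genes of differentiation were also lowest in selumetinib 2 among the selumetinib libraries. Gpr17 had 102, 80.4 and 125 CPM, Nkx2-2 24.8, 18.8 and 28.6 CPM and Itpr2 41.5, 32.6 and 64.9 CPM in selumetinib 1 to 3. Sox10 had 130, 89.2 and 240 CPM, Nkx6-2 83.8, 62.5 and 111 CPM, Aspa 54.1, 43.5 and 118 CPM and Gjb1 73.5, 48.7 and 171 CPM. In each of these 7 genes selumetinib 3 was the highest of the group. For Gpr17, Nkx2-2, Nkx6-2 and Aspa all 3 values lay within the PBS range, of which PBS 1 was the lowest in each. The lowest values of PBS 2 to 6 were 95.4, 24.2, 106 and 74.9 CPM in this order. Selumetinib 2 lay below these in each gene, and selumetinib 1 in Nkx6-2 and Aspa.

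Carboplatin and selumetinib were then compared directly. Of the 34 members, 2 passed, 5.88%, where 14.0% of all genes did (1036 higher in carboplatin, 5.65%, and 1532 lower, 8.35%). Sirt2 was higher in carboplatin (517, 644 and 524 CPM) than in selumetinib (209, 186 and 351 CPM), with a log2 fold change of 1.18 ± 0.29 and an edgeR adjusted p of 0.0282. Pcdh15 was lower in carboplatin (7.59, 8.03 and 8.68 CPM) than in selumetinib (12.3, 13.9 and 12.1 CPM), with a log2 fold change of -0.65 ± 0.16 and an edgeR adjusted p of 0.0267. The groups did not overlap for either. For Sirt2 the value nearest to carboplatin was that of selumetinib 3, while for Pcdh15 the 3 selumetinib libraries were close together. Both calls were lost when any 1 carboplatin library, selumetinib 1 or selumetinib 2 was left out, with edgeR adjusted p-values of 0.0711 to 0.124 for Sirt2 and 0.0833 to 0.101 for Pcdh15. Without PBS 1 the edgeR adjusted p was 0.00631 for Sirt2 and 0.00847 for Pcdh15.

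The carboplatin values lay above all 3 selumetinib values in 11 members (Pdgfra, Cspg4, Olig1, Matn4, Fyn, Neu4, Sirt2, Gp1bb, Myrf, Nkx6-2 and Anln), 32.4%, where 20.9% of all genes did. They lay below all 3 in Ptprz1, Pcdh15 and Nkx2-2, 8.82%, where 20.8% of all genes did. Matn4, the matrix protein matrilin 4, had 34.3, 44.0 and 41.8 CPM in carboplatin, against 17.6, 17.0 and 34.1 CPM in selumetinib. Neu4, a sialidase, had 35.4, 37.9 and 36.4 CPM in carboplatin, against 17.8, 15.5 and 29.0 CPM in selumetinib. In both, as in Sirt2, selumetinib 3 was the library nearest to carboplatin. The log2 fold change was positive for 25 of 34 members, with medians of 0.38 for precursor, 0.31 for newly formed and 0.69 for maturing genes, against -0.01 over all genes. Without PBS 1, selumetinib 1 and selumetinib 2 these medians were 0.10, -0.16 and 0.02 in the same order. With all 12 libraries, the 20 other precursor genes gave a median of -0.52 and the 20 other newly formed genes -0.34. Of the members that did not pass, Pdgfra (0.82 ± 0.29, edgeR adjusted p 0.0784) and Nkx6-2 (0.79 ± 0.29, edgeR adjusted p 0.0835) had the smallest p.

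These calls moved with single libraries. Without PBS 1, which leaves the carboplatin and selumetinib libraries as they were, 9 members passed, where 33.0% of all genes did. Beside Sirt2 and Pcdh15 these were Anln (1.31), Pdgfra (0.81), Neu4 (0.80), Matn4 (0.79), Nkx6-2 (0.78) and Olig1 (0.60) as higher and Nkx2-2 (-0.72) as lower, on the log2 scale. With selumetinib 3 left out, 10 passed, where 25.3% of all genes did, led by Anln (2.04), Gsn (1.79) and Sirt2 (1.49). With PBS 1, selumetinib 1 and selumetinib 2 left out, which sets carboplatin against selumetinib 3 alone, 1 member passed, Enpp6 (-1.15, edgeR adjusted p 0.0422), where 2.67% of all genes passed. Sirt2 gave 0.66 and Pcdh15 -0.59 there, neither past the threshold.

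**Figure D5:**
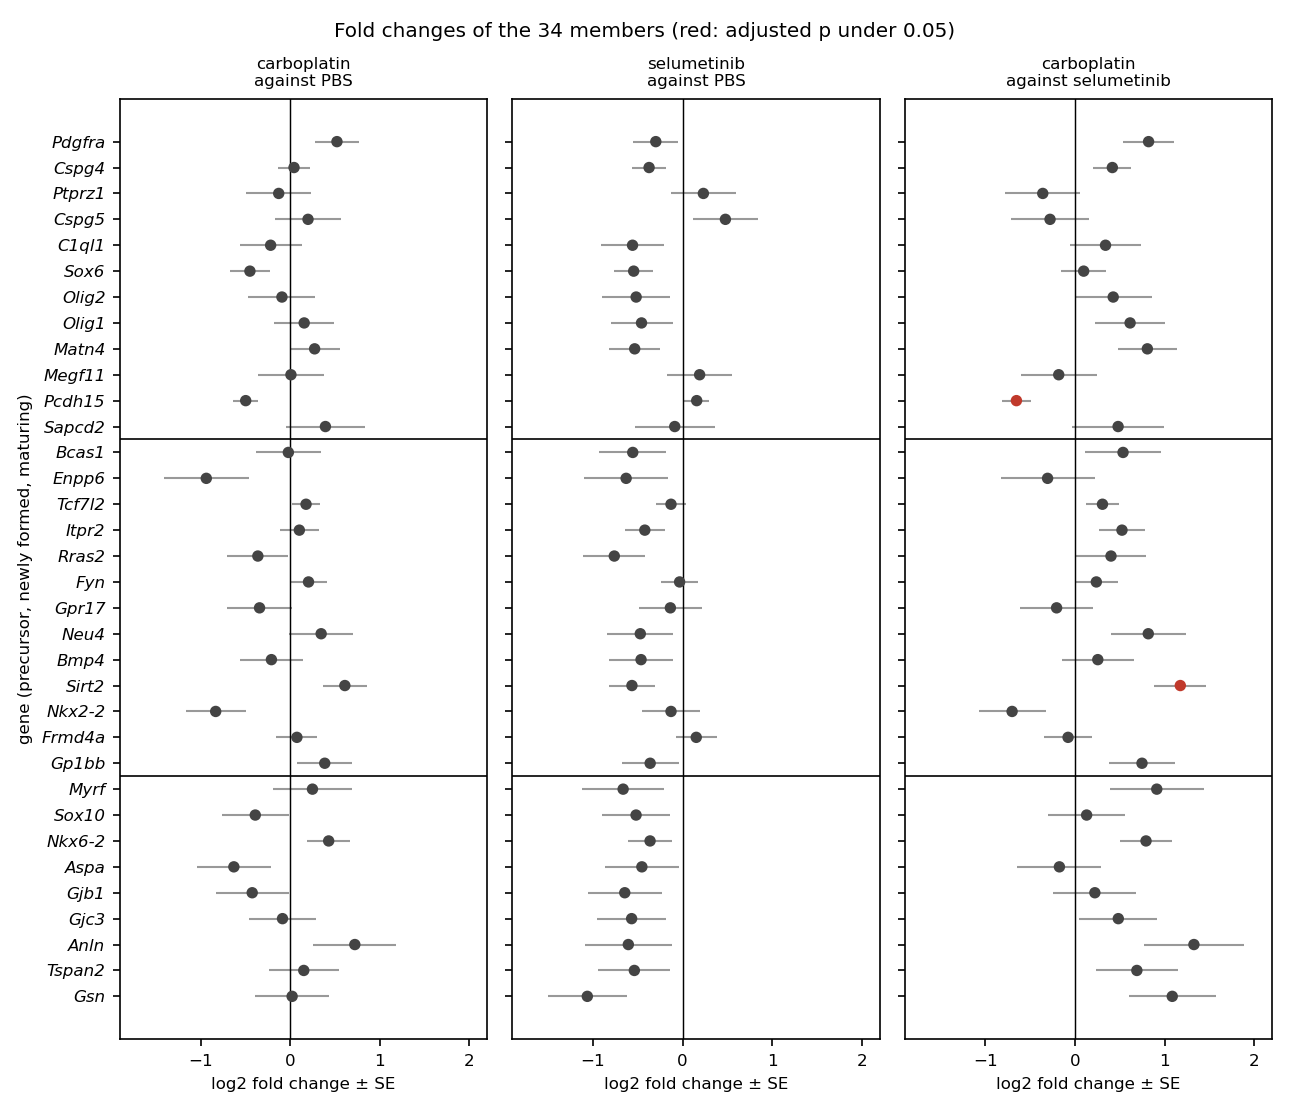
Log2 fold change and SE of the 34 members by stage, for carboplatin against PBS, selumetinib against PBS and carboplatin against selumetinib from left to right, in the fit of 12 libraries. Points marked as passing are Pcdh15 (-0.65) and Sirt2 (1.18) in carboplatin against selumetinib.

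Further genes of the lineage were followed in lists of their own. Of 20 other precursor genes 0 passed in carboplatin against PBS by edgeR. At an unadjusted p under 0.05, 4 stood above PBS and 2 below, where 8.12% of all genes stood above and 8.43% below. The comparison with selumetinib, where 14.0% of all genes passed, gave 2 that were higher in carboplatin, Scrg1 (81.5 ± 2.10 CPM in carboplatin and 22.1 ± 10.2 CPM in selumetinib, SD, n = 3 each) and Rlbp1 (107 ± 118 CPM and 15.7 ± 3.30 CPM). Rlbp1 is also a marker of the retinal pigment epithelium, whose 7 markers took 0.122% of carboplatin 2 and 0.00333% to 0.00503% of the selumetinib libraries. The 3 that were lower were Opcml, an adhesion protein (16.6 ± 1.64 CPM in carboplatin and 57.3 ± 28.6 CPM in selumetinib), Gng4 (log2 -2.48 ± 0.67) and Nxph1 (log2 -2.18 ± 0.64). Neurons are known to express all 3, and the neuron markers were highest in selumetinib 1 and 2. Their part in these differences was not tested.

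Of 20 other genes of newly formed oligodendrocytes 1 passed in carboplatin against PBS, where 2.09% of all genes passed. Prickle1, a planar polarity protein, fell to 15.8 ± 1.91 CPM in carboplatin (SD, n = 3), against 31.7 ± 3.05 CPM in PBS (n = 6), a log2 fold change of -0.998 ± 0.14 (edgeR adjusted p 0.00536). It also fell against selumetinib, which had 31.5 ± 4.32 CPM (log2 -0.99 ± 0.16, edgeR adjusted p 0.00829). In that comparison, with 14.0% of all genes called, Cnksr3, a scaffold protein, rose (log2 1.09 ± 0.18), and Pak3 (log2 -3.34 ± 0.65) and Cyfip2 (log2 -1.41 ± 0.38), both also known from neurons, fell. Of the 20 mature and myelin genes, Opalin, a membrane protein of myelinating cells, passed alone in carboplatin against PBS, where 2.09% of all genes passed. It had 15.9 ± 5.13 CPM in carboplatin and 81.7 ± 26.6 CPM in PBS (log2 -2.36 ± 0.41, edgeR adjusted p 0.0162). Opalin also passed alone against selumetinib (log2 -1.85 ± 0.43).

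Of 30 other transcription and chromatin regulators of the lineage, 2 rose in carboplatin against PBS and 0 fell. Of all genes, 1.57% passed as higher and 0.518% as lower there. Klf9, a Krüppel-like factor induced by thyroid hormone and glucocorticoids, averaged 282 ± 72.7 CPM in carboplatin and 127 ± 18.9 CPM in PBS (log2 1.15 ± 0.20, edgeR adjusted p 0.0148). Zfp24, a zinc finger factor that mice need for myelination, averaged 131 ± 13.5 CPM in carboplatin and 71.8 ± 10.9 CPM in PBS (log2 0.87 ± 0.14, edgeR adjusted p 0.0140). The comparison with selumetinib, where 14.0% of all genes passed, gave 4 that rose (of 30), among them Klf9 (log2 1.76 ± 0.24), Zfp24 (log2 1.001 ± 0.17) and Id4, an inhibitor of bHLH factors (log2 1.64 ± 0.46), and 1 that fell, Sox11 (log2 -2.10 ± 0.64). No gene of these lists passed in selumetinib against PBS by edgeR. Carboplatin against PBS was also fitted without PBS 1, selumetinib 1 and selumetinib 2. This gave 3 other precursor genes higher and 4 lower, and 1 other newly formed gene higher and 6 lower. It gave 0 mature genes higher and 5 lower, and 4 regulators higher and 1 lower. Of all genes 15.9% passed there, 1625 as higher and 1448 as lower. Prickle1 (-1.04), Opalin (-2.52), Klf9 (1.12) and Zfp24 (0.77) passed there too. None of these 4 was called without carboplatin 3 (edgeR adjusted p 0.0509 for Prickle1, 0.100 for Opalin, 0.0857 for Klf9 and 0.0884 for Zfp24), with PBS 1 to 3 as controls or with a replicate block. Opalin was also lost without carboplatin 1 or without carboplatin 2, Klf9 without carboplatin 1 and Zfp24 without carboplatin 2. In carboplatin against selumetinib, 0 genes of the precursor, newly formed, mature and regulator lists passed without selumetinib 1 and 2, where 0.0255% of all genes passed.

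Some members overlap other genes on build mm10. Sirt2 (ENSMUSG00000015149, chromosome 7, 28766735 to 28788661, plus strand) overlaps Nfkbib, and Nkx2-2 (ENSMUSG00000027434, chromosome 2, 147177546 to 147194243, minus strand) overlaps the antisense gene Nkx2-2os. Gpr17 overlaps Lims2, Nkx6-2 overlaps Inpp5a and Bcas1 overlaps 2 antisense genes, each on the opposite strand. Whether counting used strand is not given in the sources used here, so reads of such a pair cannot be told apart. Olig1, Matn4, Bmp4, Frmd4a, Gp1bb and Tspan2 overlap other genes of the table as well. Pcdh15 (ENSMUSG00000052613, chromosome 10, 73099342 to 74649737, plus strand), Enpp6 (ENSMUSG00000038173, chromosome 8, 46986887 to 47096762, plus strand) and Aspa (ENSMUSG00000020774, chromosome 11, 73304992 to 73329596, minus strand) overlap none. The RefSeq starts used for the windows of Pcdh15, Sirt2, Nkx2-2 and Aspa lie inside these longer GENCODE spans.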

How the data were processed

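Poly(A)-selected RNA from optic nerves of mice gave 12 libraries. Raw counts of reads by gene were deposited by the authors as 1 table, with a column for each library. The submitters' processing notes name FastQC, Trimmomatic, STAR, HTSeq, DESeq2 and the build mm10. Tool versions, annotation, strand setting and filters were not stated in the sources at hand. The labels' protocols give a column-based RNA purification and poly-T beads. Groups came from the treatment label and replicate numbers from the titles.

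The filterByExpr defaults of edgeR 4.0.16 (minimum count 10, minimum total 15) selected genes. One robust quasi-likelihood fit held the 3 groups, with TMM factors, and p-values were adjusted by Benjamini-Hochberg over all 18344 genes (threshold 0.05, R 4.3.3). The SE is derived, as the size of the log2 fold change over the square root of F. Log2 CPM used a prior count of 2. GENCODE M21 (GRCm38, the assembly of mm10) gave coordinates, exon lengths and overlaps. Alternatives were RLE factors, no filter, DESeq2 1.42.0, limma 3.58.1 voom with quality weights, the 2 groups compared alone, PBS 1 to 3 or PBS 4 to 6 as controls, fits without named libraries, the mature oligodendrocyte score, a replicate block and each library left out in turn. The code was tested on simulated counts. No 2 libraries of a group were duplicates (chi-square over degrees of freedom at least 17.4).

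The members and lists were chosen with earlier results of these data known. Values in every library are given for members that passed in any comparison, the 2 with the smallest p in each stage and comparison, and 9 landmark genes. Cspg5, Ptprz1, Megf11, Sapcd2, Matn4 and Neu4 were added after their values were seen. Of each other list, passing genes are named, at most 3 in each direction. Values of 1 oligodendrocyte marker are not reported here.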

Additional observations from a re-analysis of the deposited data

Results flagged for a closer look

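By Dixon's criterion, which chance meets in about 5% of groups, 9 of the 34 members had a value in PBS 1 far from the other PBS libraries, and no member had one in PBS 2 to 6. Pdgfra was low there at 86.9 CPM, against 152 to 184 CPM in PBS 2 to 6. Itpr2 was low at 44.2 CPM, against 60.3 to 69.0 CPM. Other low values were those of Ptprz1 (50.3 CPM, against 165 to 228 CPM), Olig1 (149 CPM, against 418 to 578 CPM) and Megf11 (6.33 CPM, against 24.1 to 27.2 CPM). Among newly formed genes Fyn (66.1 CPM, against 116 to 143 CPM), Neu4 (8.99 CPM, against 29.3 to 39.5 CPM) and Frmd4a (23.4 CPM, against 52.7 to 56.2 CPM) were low as well. Gsn was high at 1526 CPM, against 522 to 821 CPM, while the other 8 maturing genes were lower in PBS 1 than in any other PBS library. Skeletal muscle markers took 3.89% of the counts of PBS 1, and their part in these values was not tested. The share of all genes flagged in PBS 1 was not counted, so these flags do not set the members apart from other genes. Over all genes, PBS 1 differed from the other PBS libraries with a chi-square over degrees of freedom of 673 to 832. Among PBS 2 to 6 it was 17.4 to 69.7.

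The effects of carboplatin and selumetinib, each taken against the same PBS libraries, differed by test for 2 members. The test is the direct comparison of the drugs given above, so these are the same 2 calls. Both were lost when any 1 carboplatin library, selumetinib 1 or selumetinib 2 was left out. Pcdh15 gave a difference of -0.65 on the log2 scale (carboplatin minus selumetinib, edgeR adjusted p 0.0267), with fold changes against PBS of -0.50 in carboplatin and 0.16 in selumetinib. Sirt2 gave a difference of 1.18 (edgeR adjusted p 0.0282), with 0.61 in carboplatin and -0.57 in selumetinib.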

How the results depend on the processing

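Of 2380 values of the 34 members under the alternatives 0 reversed while called, and 179 changed sign with no call under either setting. In carboplatin against PBS the members called were 1 with DESeq2, 10 with limma voom, 2 with PBS 4 to 6 as controls, 8 without PBS 1, selumetinib 1 and selumetinib 2, 6 with the mature oligodendrocyte score, and 0 to 2 with 1 library left out (2 without PBS 1). All genes called, 383 as reported, were 1574, 5423, 2202, 3073 and 1239 in the first 5 of these settings, 7 with PBS 1 to 3 as controls, 14 without carboplatin 1 and 3, and 73 to 1941 with 1 library left out. In selumetinib against PBS limma voom called 25 members and 10148 genes, DESeq2 2403 genes and PBS 1 to 3 as controls 3 genes, and leaving out 1 library gave 0 to 7 members and 0 to 4089 genes, the highest without selumetinib 3. In carboplatin against selumetinib the members called were 1 without the filter, 4 with DESeq2, 24 with limma voom, 1 without the 3 libraries that stood apart, 8 with the score, 0 without either carboplatin 1 and 3 or selumetinib 1 and 2, and 0 to 10 with 1 library left out. Genes called there, 2568 as reported, were 4715 with DESeq2, 10749 with limma voom, 516 without the 3 libraries, 5 without selumetinib 1 and 2, 11 without carboplatin 1 and 3, and 134 to 5974 with 1 library left out. With the score 2443 genes were called in carboplatin against selumetinib, and without the filter 1822. The cause of these shifts was not tested. 

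Same-numbered libraries did not deviate together throughout (correlations of -0.12 to 0.38), and 5 of 12 libraries correlated best with one of their own number, so the numbers were not taken to pair libraries. With a replicate block 0 members were called in each comparison, and 5, 2 and 50 genes in carboplatin against PBS, selumetinib against PBS and carboplatin against selumetinib. With 3 libraries of each drug, a missed threshold does not show that a member was unchanged.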

Other observations

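Dividing cell genes, which precursors and other cells of the nerve can express, stood low in carboplatin. Of 15 such genes 4 fell against PBS (26.7%) and 0 rose, where 0.518% of all genes fell and 1.57% rose. All 15 log2 fold changes were negative (median -2.11). Mki67 averaged 0.545 ± 0.267 CPM in carboplatin (SD, n = 3) and 7.50 ± 6.61 CPM in PBS (n = 6), and Top2a 0.933 ± 0.130 CPM in carboplatin and 7.17 ± 6.31 CPM in PBS. Cenpf (log2 -3.22 ± 0.62) and Kif11 (log2 -2.11 ± 0.48) fell as well. None of the 15 was called when any 1 carboplatin library was left out, with PBS 1 to 3 as controls or with a replicate block, and in these settings the median stayed between -2.44 and -2.03. The 6 red blood cell markers together had 12.6 to 87.0 CPM in carboplatin, 631 to 1501 CPM in selumetinib and 240.5 to 7891 CPM in PBS, and their part in these values was not tested. Without PBS 1, selumetinib 1 and selumetinib 2, 7 of the 15 fell, with a median of -1.64. Of all genes 15.9% passed there, 1625 as higher and 1448 as lower. In the fit of 12 libraries all 15 were also negative in selumetinib against PBS (median -0.96), where 0 passed. In carboplatin against selumetinib 2 of the 15 fell, where 8.35% of all genes did, and all 15 were negative (median -1.60). Pdgfra and Cspg4, both among the precursor genes, gave 0.52 and 0.04 in carboplatin against PBS with all 12 libraries, neither past the threshold. Fibroblast and meninges markers took 0.0397% to 0.115% of counts in carboplatin and 0.113% to 0.190% in PBS. Pericyte and smooth muscle markers took 0.0223% to 0.0609% in carboplatin and 0.0481% to 0.0699% in PBS. The part of these cells in the values of Pdgfra and Cspg4 was not tested.

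Of 30 signals and receptors that act on precursor growth and differentiation, 0 passed in carboplatin against PBS by edgeR. At an unadjusted p under 0.05 there were 5 above and 2 below PBS, where 8.12% of all genes stood above and 8.43% below. In the comparison with selumetinib, 4 were higher in carboplatin and 1 was lower, 16.7% of the 30, where 14.0% of all genes passed. The growth factor Fgf2 averaged 20.7 ± 4.93 CPM in carboplatin and 6.86 ± 2.60 CPM in selumetinib (SD, n = 3 each, log2 1.59 ± 0.28, edgeR adjusted p 0.0113). Notch1, a receptor that holds precursors undifferentiated, averaged 85.3 ± 3.07 CPM in carboplatin and 50.5 ± 8.28 CPM in selumetinib (log2 0.76 ± 0.15). The chemokine receptor Cxcr4 averaged 11.0 ± 1.42 CPM in carboplatin and 5.44 ± 0.392 CPM in selumetinib. Tnfrsf21, a death receptor known to restrain oligodendrocyte survival, was the lower one, at 44.3 ± 2.53 CPM in carboplatin and 69.0 ± 14.9 CPM in selumetinib. None of these 4 passed without selumetinib 1 and 2.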
